A study of Homo sapiens with 12 samples.

Results

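Gene expression in OECM1 cells was compared with that in Fadu cells. Both are established squamous carcinoma lines, OECM1 of oral origin and Fadu of the hypopharynx. The comparison used every array titled with either line name, which gave 8 of the 12 arrays of a study of invasion in head and neck cancer cells, 4 of OECM1 and 4 of Fadu. The groups were the OECM1 invasion subline, the OECM1 parent, the Fadu invasion subline and the Fadu parent, with 2 arrays each. An invasion subline was grown from cells that had passed through Matrigel, a basement membrane extract, and the parent cells had not been selected in this way. The labels name no other treatment and no genetic change in any group. Biotin-labelled RNA, extracted with Trizol, was read on 1 Affymetrix array for each sample. The remaining 4 arrays, labelled Detroit, entered only 1 alternative fit.

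The question was how the 2 lines differ at baseline, over parent and subline together. Each side is 1 line, so the site of origin and the individual line cannot be told apart, and the arrays of a line share their source. Nothing in the labels ties the duplicates to separate cultures, so p-values measure only the spread between these arrays, which may be technical. Values are log2 RMA values, and a difference is OECM1 minus Fadu on the log2 scale with its standard error (SE). The array values of a line are given in the order invasion subline replicate 1, invasion subline replicate 2, parent replicate 1 and parent replicate 2.

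Squamous epithelia are built from basal keratinocytes, which carry the keratin pair KRT5 and KRT14, sit on a basement membrane and change their keratins as they mature. Carcinoma cells of this origin can lose part of the keratinocyte program and take on genes of mesenchymal cells, such as the intermediate filament gene VIM, while still holding epithelial junctions. Interferon stimulated genes are a further set, switched on by interferon signalling, and include antiviral proteins and parts of antigen presentation.

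The labels were first set against the line markers. VIM, which encodes vimentin, had log2 values of 10.12, 10.08, 8.13 and 6.45 in OECM1 and 5.56, 4.87, 5.0 and 5.04 in Fadu. All OECM1 arrays lay above all Fadu arrays, and the OECM1 sublines lay above the OECM1 parents. The difference was 3.58 (SE 0.524, 11.9-fold higher, adjusted p = 0.00124, limma with Benjamini-Hochberg adjustment over all genes tested), with 4.88 in the sublines and 2.27 in the parents. KRT14 had 4.01, 3.90, 3.90 and 4.94 in OECM1 and 9.48, 8.20, 9.08 and 8.66 in Fadu. The limit below which a value was treated as dim was 4.52, so 3 of the 4 OECM1 arrays were dim and all Fadu arrays were bright. The KRT14 difference was -4.67 (SE 0.321, 25.4-fold lower, adjusted p = 1.30e-05). The array carries no detection calls and RMA compresses low values, so folds that rest on a dim line are understated. In bulk RNA, fewer cells of a kind and less RNA per cell cannot be told apart.

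Of the 5 squamous epithelium markers with a probe set named for 1 gene, KRT5 and KRT14 were lower in OECM1, CDH1 and DSG3 were higher, and PKP1 did not pass (difference -0.14, adjusted p = 0.705). CDH1, which encodes E-cadherin, had 9.82, 9.75, 9.83 and 9.75 in OECM1 and 8.68, 8.31, 9.34 and 8.89 in Fadu. Every OECM1 array was above every Fadu array for this epithelial cadherin. Both lines were thus bright for the epithelial cadherin, whereas KRT14 was bright in Fadu and dim in most OECM1 arrays.

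Lists of markers of cell types that cultures of carcinoma lines should lack averaged near the dim limit, although some members were above it in all 8 arrays. The mean log2 level of 7 fibroblast markers lay between 4.31 and 4.72 in OECM1 arrays and between 4.36 and 4.61 in Fadu arrays, and 0 of the 5 tested members were called. Its members COL1A1 (5.72 to 6.38 in OECM1 and 5.87 to 6.27 in Fadu) and PDGFRA (5.07 to 5.77 in OECM1 and 5.13 to 5.40 in Fadu) were above the dim limit in every array. The 5 endothelial markers lay between 3.80 and 4.08 in OECM1 and between 3.96 and 4.06 in Fadu. The 7 blood cell markers, leukocyte genes and the haemoglobin gene HBB, lay between 4.08 and 4.30 in OECM1 and between 4.20 and 4.34 in Fadu. Melanocyte markers (3 genes) lay between 4.02 and 4.19 in OECM1 and between 4.03 and 4.13 in Fadu, and neural and endocrine markers (4 genes) between 4.10 and 4.48 in OECM1 and between 4.38 and 4.94 in Fadu, with 0 and 1 called. The neural gene called was NEFL, a neurofilament subunit, at 3.32 to 3.89 in OECM1 and 4.13 to 5.55 in Fadu (-1.17, adjusted p = 0.00411). Of the blood cell markers, CD3D (5.09 to 5.77 in OECM1 and 5.57 to 5.66 in Fadu) was above the dim limit in every array. So was HBB (4.67 to 5.23 in OECM1 and 4.61 to 4.88 in Fadu). CD14, a monocyte marker, was called lower in OECM1 (-0.67, adjusted p = 0.0132), at 4.33 to 4.48 in OECM1 and 4.84 to 5.28 in Fadu.

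Arrays of a line resembled each other more than arrays of the other line. Over the 8748 genes tested, which are not independent replicates, pairs of arrays from 1 line correlated at r = 0.896 to 0.974 and pairs from different lines at r = 0.824 to 0.878. The OECM1 parent duplicates were the least alike of the 4 duplicate pairs, with r = 0.896 and a root mean square difference of 0.755. The ACTB control probe sets give a log2 difference of 3 prime over 5 prime signal, higher where RNA is more degraded, which was 0.06, 0.63, 0.87 and 0.04 in OECM1 and -0.05, 0.40, 0.55 and -0.23 in Fadu. The ranges of the lines overlapped (two-sided exact permutation p = 0.429, where the smallest possible p is 0.0286).

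Of the 8748 genes tested, 1837 were called at an adjusted p under 0.05, which is 21.0%. In OECM1 970 were higher (11.1%) and 867 lower (9.91%). The median difference of all genes was -0.02. Without Fadu subline replicate 1 and 2 the count of 1837 was 1216 and 1203. At least 2-fold differences made up 1085 of the calls, 12.4% of the genes tested. The 4 arrays of one line lay wholly beyond the 4 of the other for 2156 genes (24.6%), and 1622 of the 1837 called genes were among them.

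The same difference was read separately in sublines and in parents, which use different arrays. The subline contrast called 999 genes (11.4%), 546 higher and 453 lower in OECM1, and the parent contrast called 426 (4.87%), 216 higher (2.47%) and 210 lower (2.40%). Of the 426 genes called in parents, 420 had the same sign in the sublines and 326 were called there too. Across all 8748 genes 74.5% had the same sign in both states, and the differences correlated at r = 0.796 across genes. In the scatter of both contrasts NRG1, KRT14 and IFI27 lie close to the diagonal, while VIM and KRT5 differ more in the sublines and KRT19 more in the parents.

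**Figure D1:**
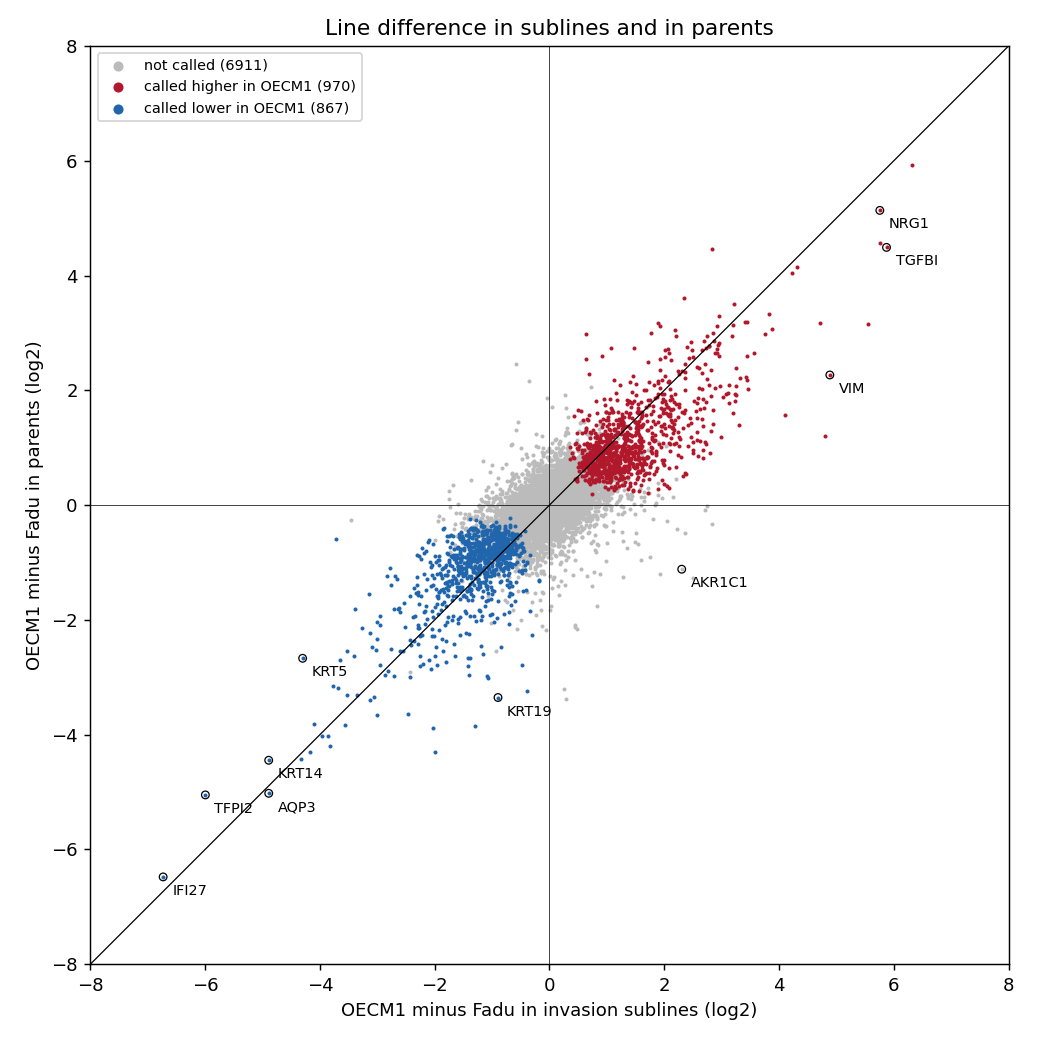
Log2 difference OECM1 minus Fadu in the invasion sublines (horizontal axis) and in the parents (vertical axis) for 8748 genes, 1 point per gene, with 970 called higher and 867 called lower in OECM1 coloured and the rest grey. The line marks equal differences, and NRG1, VIM, KRT14 and IFI27 lie in the same quadrant in both states while AKR1C1 lies at 2.30 in the sublines and -1.12 in the parents.

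Among the genes far higher in OECM1 were a growth factor, matrix proteins and enzymes of inflammation. The largest differences were picked among called genes whose lines did not overlap, so that separation is part of the choice. NRG1, the neuregulin ligand of the receptors ERBB3 and ERBB4, had 10.80, 9.60, 10.56 and 10.80 in OECM1 and 4.41, 4.48, 5.09 and 6.0 in Fadu. No Fadu array came within a log2 value of 3 of an OECM1 array. The difference was 5.45 (SE 0.308, 43.6-fold higher, adjusted p = 3.90e-06), with 5.76 in sublines and 5.13 in parents. Other probe sets of NRG1 that passed the filter gave 0.01 to 2.80, so the size depends on the part of the gene that is probed. TGFBI, a matrix protein gene named for its induction by TGF-beta, had 11.48, 11.12, 10.95 and 9.97 in OECM1 and 5.77, 5.09, 5.09 and 6.86 in Fadu, a difference of 5.18 (SE 0.434, adjusted p = 4.10e-05). TGFBI was above the dim limit in every array, and the lines did not overlap.

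PLAC8, which encodes a small cysteine-rich protein, had 9.48, 9.29, 8.42 and 8.13 in OECM1 and 3.46, 3.77, 3.90 and 3.52 in Fadu. PTGS2, the inducible cyclooxygenase of prostaglandin synthesis, had 10.12, 8.74, 7.75 and 6.64 in OECM1 and 4.22, 3.55, 3.76 and 4.34 in Fadu. Both genes were dim in every Fadu array, and both sublines of OECM1 lay above both of its parents. The differences were 5.16 for PLAC8 (35.8-fold, adjusted p = 1.82e-06) and 4.34 for PTGS2 (20.3-fold, adjusted p = 0.000352).

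DLC1, a GTPase-activating protein gene, was 17.6-fold higher in OECM1, SPP1, which encodes the secreted phosphoprotein osteopontin, 15.5-fold, and CDA, the cytidine deaminase of pyrimidine salvage, 9.98-fold. SERPINB7, a serpin of keratinocytes, was 10.4-fold higher and ADAM9, a membrane metalloprotease gene, 8.97-fold, the last at 9.65 to 10.38 in OECM1 and 6.63 to 7.03 in Fadu. MAGEA6, a cancer-testis antigen gene, was 18.8-fold higher, but its probe set is of a kind that can take signal from near-identical MAGEA genes. These genes did not overlap between the lines, which was a condition for picking the largest differences. Their calls remained in each of the 8 fits that left out 1 array.

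The largest named decrease was that of IFI27, an interferon stimulated gene. It had 4.12, 3.89, 3.78 and 4.54 in OECM1 and 10.30, 11.17, 12.08 and 9.20 in Fadu. The lines were separated by more than 4 log2 units, although the Fadu arrays themselves spanned 9.20 to 12.08. The difference was -6.60 (SE 0.515, 97.3-fold lower, adjusted p = 2.56e-05). TFPI2, an inhibitor of serine proteases in the matrix, had 3.42, 3.41, 3.21 and 3.24 in OECM1 and 9.83, 9.0, 8.46 and 8.10 in Fadu, a difference of -5.52 (SE 0.260, adjusted p = 1.82e-06). AQP3, a water and glycerol channel of the basal layer, had 4.29, 4.95, 4.29 and 4.43 in OECM1 and 9.65, 9.37, 9.73 and 9.03 in Fadu. The AQP3 difference was -4.96 (31.1-fold lower), and its other probe sets gave -1.90 to -1.71.

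EREG, which encodes the EGFR ligand epiregulin, had 3.28, 2.98, 2.97 and 2.97 in OECM1 and 7.15, 6.82, 7.63 and 6.37 in Fadu. It was dim in all OECM1 arrays, the difference being -3.94 (15.4-fold lower, adjusted p = 9.75e-06). PSPH, the phosphatase of the last step of serine synthesis, was 15.9-fold lower, ERAP2, an aminopeptidase that trims peptides for MHC class I, 20.9-fold lower, and PRSS21, a membrane-anchored serine protease gene, 18.9-fold lower. EEF1A2, a tissue-restricted elongation factor gene, was 10.8-fold lower, SH3YL1 15.5-fold lower and UBE2L6, the conjugating enzyme for ISG15, 13-fold lower. In each of these genes the lines did not overlap, which was again a condition for picking the largest differences. In TFPI2, ERAP2, PSPH and EREG all 4 OECM1 arrays were dim.

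**Figure D2:**
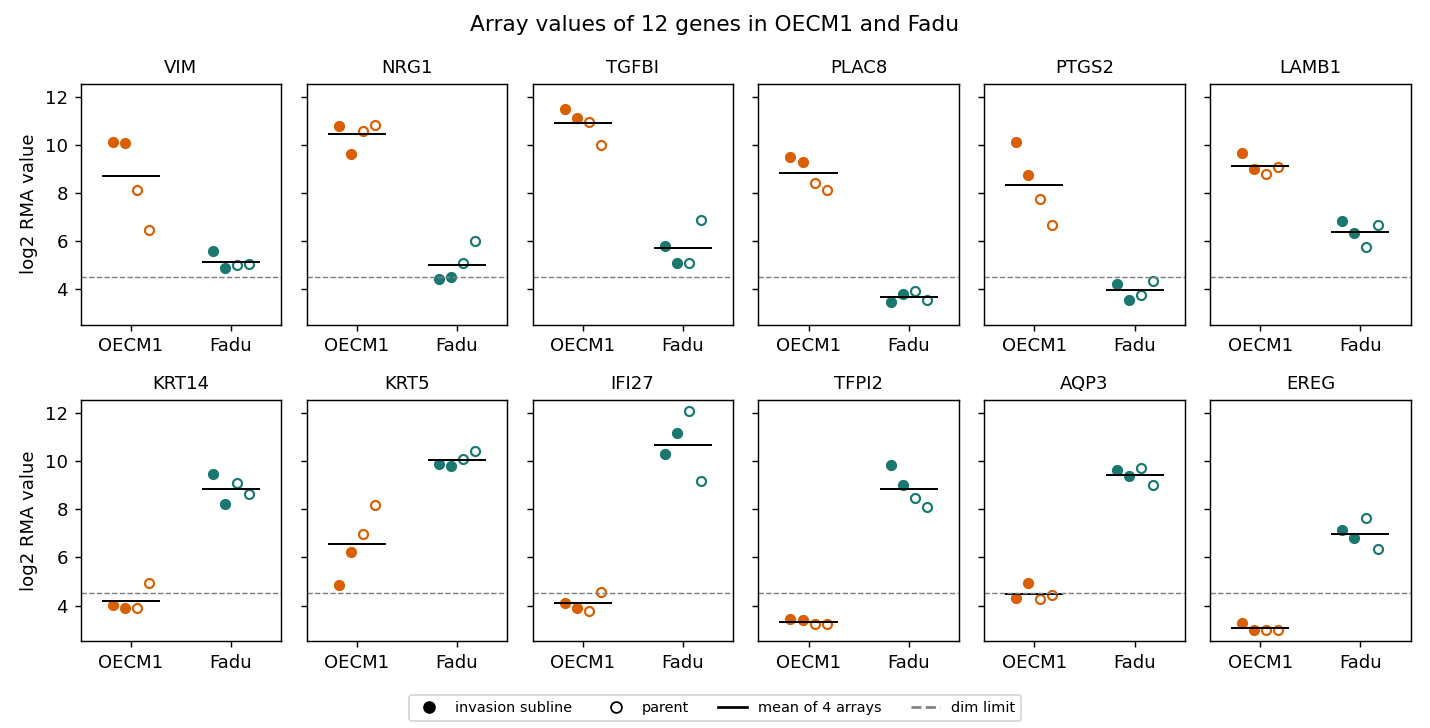
Log2 RMA value of 12 genes in each of the 8 arrays, 1 panel per gene, with OECM1 on the left and Fadu on the right, filled points for the invasion subline and open points for the parent, and a bar at the mean of the 4 arrays of a line. The dashed line is the dim limit of 4.52, and all Fadu points of PLAC8 and PTGS2 and all OECM1 points of TFPI2 and EREG lie below it.

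Of 8 keratins of basal and simple epithelia, 7 were called lower in OECM1. Of 4 basal and stress keratins tested, all 4 were called lower, against 9.91% of all genes, with a median difference of -2.54 against -0.02. KRT5, the partner of KRT14, had 4.87, 6.23, 6.97 and 8.18 in OECM1 and 9.89, 9.81, 10.08 and 10.41 in Fadu. The Fadu arrays lay close together, while the OECM1 arrays spread widely, with the subline arrays at the low end. The difference was -3.48 (SE 0.418, adjusted p = 0.000399). KRT15, a keratin of basal cells, was lower by 1.60 on the log2 scale and KRT16, a keratin of stressed and healing epidermis, by 0.73. KRT15 lost its call without OECM1 subline replicate 1, Fadu subline replicate 2 or Fadu parent replicate 1, and KRT16 without OECM1 subline replicate 2 or the same Fadu arrays, with adjusted p up to 0.0595 and 0.0653. The count of 4 was 2 without Fadu subline replicate 2, without Fadu parent replicate 1 and without both OECM1 parent arrays.

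Of 4 simple epithelial keratins 3 were lower (75.0%), against 9.91% of all genes. KRT7 had 5.32, 4.69, 4.88 and 5.76 in OECM1 and 7.32, 8.10, 7.31 and 6.97 in Fadu, and KRT8 differed by -1.09 (adjusted p = 0.00329). KRT18, the partner of KRT8, was bright in both lines and did not pass (difference -0.32, adjusted p = 0.247). KRT19 had 7.71, 8.59, 5.77 and 6.94 in OECM1 and 8.37, 9.73, 10.01 and 9.40 in Fadu, so the lines overlapped. Its difference of -2.12 (adjusted p = 0.0170) was -0.90 in the sublines and -3.35 in the parents, and the call ended without Fadu subline replicate 2, Fadu parent replicate 1 or Fadu parent replicate 2, with adjusted p up to 0.0532.

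Genes of squamous maturation were called about as often as genes in general. Of 18 tested, 3 were higher (16.7%) and 2 lower (11.1%) in OECM1, against 11.1% and 9.91% of all genes, with a median of -0.16. The median lay between -0.27 (without OECM1 parent replicate 2) and -0.023 (without OECM1 parent replicate 1) when 1 array was left out. The count of 2 was 1 without any single OECM1 array and without Fadu parent replicate 1. SCEL, which encodes sciellin of the cornified envelope, had 5.97, 6.12, 5.90 and 6.56 in OECM1 and 3.38, 3.24, 3.25 and 3.33 in Fadu, a difference of 2.84 (SE 0.182, adjusted p = 9.53e-06). KRT13, the keratin of maturing mucosal epithelium, ran the other way, with 4.21, 3.55, 3.17 and 3.87 in OECM1 and 5.90, 6.78, 7.98 and 6.34 in Fadu (difference -3.05, adjusted p = 0.000646). Both separated the lines, in opposite directions. ANXA1, an annexin of maturing keratinocytes, was 2.04-fold higher, while LY6D, SPRR1A and KRT10 differed by -0.15, -0.24 and -0.26 and did not pass.

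Some mesenchymal genes were higher in OECM1. Of 18 mesenchymal and partial EMT genes tested, 7 were higher (38.9%) and 0 lower, against 11.1% and 9.91% of all genes. The median was 0.75. Beside VIM, TGFBI and FN1, the activin subunit gene INHBA had 7.39, 7.37, 7.76 and 6.15 in OECM1 and 4.67, 4.19, 4.49 and 4.24 in Fadu, and the matrix protein gene TNC 7.74, 7.96, 8.23 and 8.01 in OECM1 and 5.99, 5.87, 5.16 and 4.85 in Fadu. Neither gene overlapped between the lines, and the differences were 2.77 and 2.52 (adjusted p = 0.000288 and 0.000170). AXL, a receptor tyrosine kinase gene, and CDH2, which encodes N-cadherin, differed by 0.79 and 0.71 and did not pass (adjusted p = 0.0553 and 0.130). CAV1 and COL1A1 lay at -0.15 and -0.04.

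Of 24 genes of epithelial junctions and identity, 4 were higher (16.7%), 4 lower (16.7%) and 16 did not pass, against 11.1% and 9.91% of all genes. The median was -0.17, with 0.045 in the sublines, -0.067 without OECM1 parent replicate 1 and -0.088 without Fadu parent replicate 1. The claudin gene CLDN7 had 5.46, 5.31, 5.55 and 5.99 in OECM1 and 8.23, 7.95, 8.60 and 8.89 in Fadu, a difference of -2.84 (SE 0.201, adjusted p = 1.45e-05). CLDN1 was 4.52-fold lower, RAB25, a small GTPase gene of epithelial recycling, 3.17-fold and the membrane protease gene ST14 3.08-fold. Against these, CDH1 was higher by 0.99 and EHF, an epithelial ETS factor gene, by 1.56. EPCAM and TJP1 did not pass, at -0.05 and 0.60. The claudin genes named here and CDH1 thus had opposite signs in the same arrays.

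Of 17 desmosome and hemidesmosome genes, 5 were higher (29.4%) and 1 lower (5.88%), against 11.1% and 9.91% of all genes. The hemidesmosome integrin genes ITGA6 and ITGB4 were 4.83-fold and 2.41-fold higher, LAMB3, a chain of the laminin they bind, 3.53-fold, and DSG3, a desmosomal cadherin gene, 2.12-fold. Another probe set of ITGB4 gave -0.14. PPL, which encodes periplakin, had 6.49, 6.50, 7.47 and 8.06 in OECM1 and 8.61, 9.65, 9.79 and 9.35 in Fadu, a difference of -2.22 (adjusted p = 0.000632). DSP and PERP did not pass, at -0.10 and -0.69.

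Most basement membrane genes were higher in OECM1. Of 16 tested, 12 were called higher and 0 lower, against 11.1% higher among all genes, and the median difference was 1.48. Averaged over the list and set against the Fadu mean, the OECM1 arrays lay at 1.68, 1.43, 1.28 and 1.11 and the Fadu arrays at 0.19, 0.09, -0.20 and -0.08, with no overlap. LAMB1, a laminin chain gene, had 9.65, 8.98, 8.80 and 9.07 in OECM1 and 6.85, 6.34, 5.73 and 6.65 in Fadu, a difference of 2.73 (SE 0.263, adjusted p = 0.000113). LAMC1, its partner chain, was 3.57-fold higher, the type IV collagen genes COL4A2 and COL4A6 3.75-fold and 5.98-fold, and HSPG2, which encodes perlecan, 4.04-fold. The members that did not pass included PXDN at 0.56 and COL18A1 at -0.16.

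Interstitial matrix genes were raised in part. Of 26 tested, 7 were higher (26.9%) and 0 lower, against 11.1% and 9.91% of all genes. The median was 0.22 (0.14 without OECM1 parent replicate 1). LOXL1, a lysyl oxidase that crosslinks elastin and collagen, had 7.62, 8.16, 7.02 and 7.06 in OECM1 and 4.06, 3.95, 3.93 and 4.02 in Fadu. Its difference was 3.47 (SE 0.219, adjusted p = 9.00e-06), and it was dim in every Fadu array. FN1, which encodes fibronectin, had 9.88, 8.37, 9.01 and 8.39 in OECM1 and 6.29, 5.52, 4.79 and 5.61 in Fadu, and its other probe sets that passed the filter gave 0.74 to 3.66. THBS1, a matricellular protein gene, and LOXL2 were 6.28-fold and 5.99-fold higher, although LOXL2 reached 9.54 in Fadu parent replicate 2 against 7.36 to 7.45 in the other Fadu arrays. The fibrillar collagen genes COL1A1 and COL1A2 differed by -0.04 and 0.02.

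Integrins are receptors for these ligands. Of 14 tested, 7 were higher (50%), 0 lower and 7 did not pass, against 11.1% higher and 9.91% lower among all genes. The median was 0.64. ITGA6 had 10.68, 9.91, 10.33 and 9.45 in OECM1 and 8.21, 7.88, 7.88 and 7.31 in Fadu. ITGA5, the fibronectin receptor subunit, was 3.19-fold higher, ITGA2, a collagen receptor subunit, 3.17-fold and ITGB5 2.13-fold. These were among the called members with the largest differences. None of them overlapped between the lines, as was so for 24.6% of all genes and for 1622 of the 1837 called genes.

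Of 33 proteases and their inhibitors, 10 were higher (30.3%) and 4 lower (12.1%), against 11.1% and 9.91% of all genes. The urokinase receptor gene PLAUR had 8.09, 8.42, 8.18 and 5.99 in OECM1 and 5.81, 5.61, 5.20 and 5.70 in Fadu. OECM1 parent replicate 2 lay near the Fadu arrays and apart from the other OECM1 arrays, and the difference was 2.09 (adjusted p = 0.00610). PLAT, the tissue plasminogen activator, was 4.24-fold higher and CST6, a cysteine protease inhibitor gene, 4.30-fold, while SERPINA1, which encodes alpha-1-antitrypsin, was 3.98-fold lower. Of 12 kallikrein-related peptidases, serine proteases of maturing epithelium, 0 were higher and 3 lower (25%), against 11.1% and 9.91% of all genes. KLK10 had 4.65, 4.83, 5.19 and 5.08 in OECM1 and 6.30, 7.23, 8.90 and 9.12 in Fadu, and KLK6 4.72, 4.06, 3.96 and 4.60 in OECM1 and 5.33, 6.04, 7.02 and 9.23 in Fadu. In both genes the Fadu parents lay above the Fadu sublines, so the difference was larger in parents (-3.88 and -3.84) than in sublines (-2.02 and -1.30), and the interaction of line and state was not called (adjusted p = 0.892 for KLK10 and 1.00 for KLK6).

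**Figure D3:**
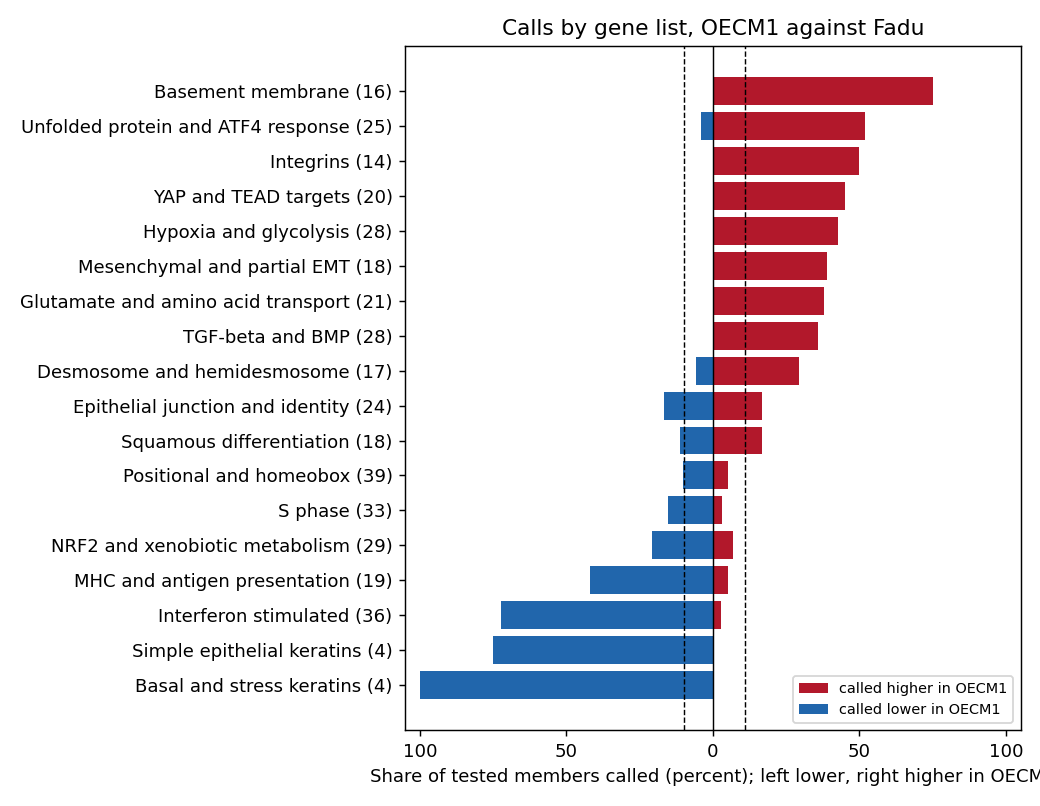
Share of tested members called higher in OECM1 (bars to the right) and called lower (bars to the left) for 18 gene lists, in percent, with the number tested beside each list name. Dashed lines mark the shares among all 8748 genes, 11.1% higher and 9.91% lower. Basement membrane, unfolded protein and integrin genes extend to the right, and basal keratins and interferon stimulated genes to the left.

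Interferon stimulated genes were lower in OECM1 as a group. Of 36 tested, 26 were called lower, 1 higher and 9 did not pass, against 9.91% lower among all genes, and the median difference was -1.92. In 33 of the 36 the difference was negative both in sublines and in parents. Averaged over the list and set against the Fadu mean, the OECM1 arrays lay at -1.94, -1.65, -2.01 and -1.84 and the Fadu arrays at -0.27, 0.11, 0.72 and -0.57. The OECM1 arrays were close together, and the Fadu arrays spread over a wider range with the parent replicates at its ends.

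The promoters of the 5 members with the largest decreases are shown because most promoters of this list carry the short motif of the interferon stimulated response element, through which interferon signalling acts. The motif searched was GAAA, any 2 bases and GAAA on either strand, which reads TTTC, any 2 bases and TTTC on the opposite strand, from 250 bases before to 50 bases after each gene start, in the RefSeq promoter table for GRCh38.p14. Capitals mark its matches in the stretches shown, which all lie before the start. Sequences run 5 prime to 3 prime on the strand of the gene, at chr14:94110593-94110685 (plus) for IFI27, chr1:78649736-78649815 (plus) for IFI44, chr10:89392472-89392564 (plus) for IFIT1, chr1:89065291-89065370 (minus) for GBP1 and chr21:41431819-41431898 (plus) for MX1.
IFI27: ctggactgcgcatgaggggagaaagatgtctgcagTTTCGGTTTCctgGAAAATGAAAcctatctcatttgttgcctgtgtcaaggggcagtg
IFI44: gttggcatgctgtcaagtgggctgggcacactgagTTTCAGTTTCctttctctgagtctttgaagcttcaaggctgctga
IFIT1: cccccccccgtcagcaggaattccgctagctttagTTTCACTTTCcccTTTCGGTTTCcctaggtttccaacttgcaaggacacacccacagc
GBP1: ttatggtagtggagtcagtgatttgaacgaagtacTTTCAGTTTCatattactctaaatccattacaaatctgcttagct
MX1: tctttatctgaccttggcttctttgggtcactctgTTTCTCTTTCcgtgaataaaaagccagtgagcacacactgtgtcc

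IFI27 and IFIT1 hold a pair of matches separated by 3 bases, and the other stretches hold 1 match each. Of the 36 list members tested, 28 had a promoter in the table, and 22 of these 28 (78.6%) held the motif, against 3.86% of the 7129 tested genes with a promoter and 3.57% of all 35116 promoters. It was present in 16 of 20 members called lower (80.0%) and in 6 of 8 others (75.0%). A match is a description of these letters and does not show that a factor binds there.

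IFI44 had 4.38, 4.85, 3.87 and 4.15 in OECM1 and 8.31, 8.56, 8.60 and 7.83 in Fadu, a difference of -4.01 (SE 0.232, adjusted p = 4.32e-06). IFIT1, an antiviral RNA-binding protein gene, had 4.53, 5.97, 4.57 and 4.45 in OECM1 and 8.32, 8.43, 8.77 and 7.05 in Fadu (-3.26, adjusted p = 0.000386). OECM1 subline replicate 2 was the highest OECM1 array for both, and no OECM1 array reached a Fadu array. GBP1, a guanylate-binding protein gene, was 9.01-fold lower and MX1, an antiviral dynamin-like GTPase gene, 7.21-fold lower, both with all 4 OECM1 arrays dim. IRF9, a DNA-binding factor of interferon signalling, was chosen after its values were seen and differed by -2.64. The member called higher, likewise chosen after its values were seen, was PARP12 at 1.12. IRF1 and IFIT5 did not pass, at -0.56 and -0.65 (adjusted p = 0.137 and 0.0954), and LGALS3BP lay at 0.14.

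Genes of MHC class I presentation were lower in part. Of 19 tested, 8 were lower (42.1%) and 1 higher (5.26%), against 9.91% and 11.1% of all genes. The median was -0.65. The 1 higher call was lost without any single array other than OECM1 parent replicate 2. HLA-B had 9.20, 9.70, 9.07 and 7.48 in OECM1 and 10.81, 10.95, 11.36 and 10.81 in Fadu, and HLA-C differed by -2.03, with smaller differences of -1.13 to -0.74 and -0.68 to -0.47 in their other probe sets. HLA probe sets can share signal between near-identical genes. PSMB9, a subunit of the immunoproteasome, had 4.93, 5.68, 4.69 and 4.72 in OECM1 and 7.12, 7.63, 7.71 and 7.41 in Fadu (-2.46, adjusted p = 0.000154). HLA-E, HLA-F and HLA-G did not pass, at -0.72, -0.65 and -0.28. Of 25 cytokine and chemokine genes 4 were higher and 4 lower (16.0% each, against 11.1% and 9.91% of all genes), and without OECM1 parent replicate 2 the count was 7 higher, while without OECM1 subline replicate 1 or 2 it was 1 or 2 lower. IL1A had 9.90, 9.77, 9.93 and 11.36 in OECM1 and 6.63, 7.20, 7.29 and 7.76 in Fadu, a difference of 3.02 that a second probe set did not show (0.16). CXCL2 and IL1B were 6.12-fold and 4.55-fold higher. TNFSF10, the death receptor ligand TRAIL and itself interferon-responsive, was 4.10-fold lower with overlapping arrays.

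**Figure D4:**
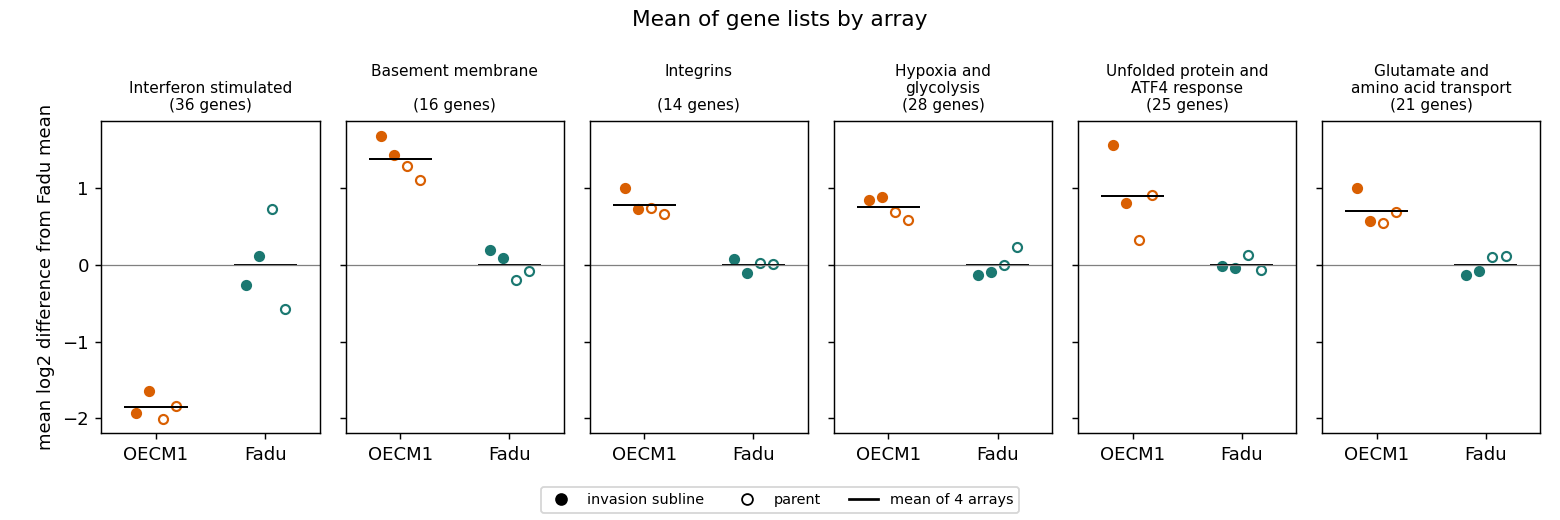
Mean log2 difference from the Fadu mean over the tested members of 6 gene lists in each of the 8 arrays, with OECM1 on the left and Fadu on the right in each panel, filled points for the invasion subline and open points for the parent. The interferon list lies at -2.01 to -1.65 in OECM1, and the basement membrane, integrin, hypoxia, unfolded protein and amino acid transport lists lie above 0 in all OECM1 arrays.

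In the EGFR family list, ligands were called in both directions. Of 8 genes tested, NRG1 and TGFA were higher and 2 were lower, EREG and LRIG1 (25% each way, against 11.1% and 9.91% of all genes). TGFA, the ligand transforming growth factor alpha, had 7.36, 7.31, 7.76 and 6.71 in OECM1 and 6.38, 5.75, 5.87 and 5.97 in Fadu (1.29, adjusted p = 0.00584). LRIG1, an inhibitor of EGFR family receptors, lay at the dim limit in both lines, and its call at -0.61 ended in 5 of the 8 fits that left out 1 array (without either OECM1 subline array, either Fadu subline array or Fadu parent replicate 1), with adjusted p up to 0.131. The receptor genes EGFR and ERBB2 differed by -0.16 and 0.08 and did not pass (adjusted p = 0.562 and 0.820). Of 20 genes read as output of the MAPK pathway 8 were higher (40%) and 1 lower (5%), against 11.1% and 9.91% of all genes. The median was 0.61. PHLDA1 had 9.67, 9.22, 8.48 and 9.69 in OECM1 and 7.10, 6.24, 5.74 and 6.88 in Fadu, and IER3, HMGA2 and EPHA2 were 3.94-fold, 3.14-fold and 2.55-fold higher. EGR1, an immediate early gene, was 3.82-fold lower with overlapping arrays, at 3.70, 3.80, 3.55 and 5.39 in OECM1 and 6.22, 5.94, 6.77 and 5.24 in Fadu. FOSL1 lay at 0.01.

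In the TGF-beta and BMP list 10 of 28 genes were higher (35.7%) and 0 lower, against 11.1% and 9.91% of all genes. The count of 10 was 4 and 3 without OECM1 subline replicate 1 and 2, 2 and 3 without Fadu subline replicate 1 and 2, and 6 and 5 without Fadu parent replicate 1 and 2. SMAD4, the common partner of the receptor-activated SMADs, had 5.01, 4.96, 4.98 and 5.16 in OECM1 and 2.99, 2.77, 2.99 and 3.10 in Fadu. The 4 values of each line lay close together, and every Fadu array was below the dim limit of 4.52. The difference was 2.07 (SE 0.142, adjusted p = 1.30e-05). ID3, an inhibitor of basic helix-loop-helix factors and a BMP target, had 6.91, 7.84, 8.43 and 8.71 in OECM1 and 5.13, 4.94, 5.04 and 4.89 in Fadu (2.97, adjusted p = 0.000146). SMAD2 and TGFBR2 did not pass, at -0.00 and 0.34.

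Of 20 YAP and TEAD target genes 9 were higher (45.0%) and 0 lower, against 11.1% and 9.91% of all genes. The median was 0.63. The co-activator gene YAP1 itself had 8.22, 8.05, 8.47 and 9.15 in OECM1 and 6.09, 6.04, 6.24 and 7.09 in Fadu (2.11, adjusted p = 0.000338), and CCN1, a matricellular target, 12.23, 11.20, 10.38 and 11.64 in OECM1 and 10.24, 9.27, 8.29 and 9.38 in Fadu (2.07, adjusted p = 0.00345). Neither overlapped. CRIM1 and FJX1 were 4.39-fold and 3.41-fold higher, and IGFBP3 lay at -1.48 without passing (adjusted p = 0.219). Of 28 WNT pathway genes 8 were higher (28.6%) and 1 lower (3.57%), against 11.1% and 9.91% of all genes. The count of 8 was 4 and 3 without OECM1 subline replicate 1 and 2, 5 without OECM1 parent replicate 1, 3 and 1 without Fadu subline replicate 1 and 2, and 5 and 1 without Fadu parent replicate 1 and 2. SFRP1, a secreted WNT antagonist, was 3.57-fold higher, with OECM1 parent replicate 2 at 4.67 against 5.86 to 6.54 in the other OECM1 arrays, and DKK3 2.34-fold lower with overlapping arrays. CTNNB1, which encodes beta-catenin, lay at -0.75 (adjusted p = 0.0611). In the list of squamous and basal lineage factors 5 of 22 were higher (22.7%) and 3 lower (13.6%), against 11.1% and 9.91% of all genes. The count of 3 was 0 without OECM1 subline replicate 1 and 1 without Fadu subline replicate 1 or Fadu parent replicate 2. The Notch ligand gene JAG1 had 10.55, 9.87, 9.19 and 9.41 in OECM1 and 6.64, 6.86, 7.48 and 7.07 in Fadu (2.74, adjusted p = 0.000288). The hyaluronan receptor gene CD44 was higher by 1.91.

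Genes of the unfolded protein and ATF4 responses were higher in OECM1 in part. Of 25 tested, 13 were higher (52%), 1 lower (4%) and 11 did not pass, against 11.1% higher and 9.91% lower among all genes. The median was 0.87. Set against the Fadu mean, the list averaged 1.56, 0.80, 0.32 and 0.91 in OECM1 and -0.02, -0.05, 0.13 and -0.06 in Fadu. OECM1 parent replicate 1, which had the highest ACTB 3 prime to 5 prime difference (0.87), was the lowest OECM1 array, and with that control difference as a covariate the count was 14 higher and 1 lower. The count of 13 was 7 without OECM1 subline replicate 1, 6 without either Fadu subline array and 8 without Fadu parent replicate 2. HERPUD1, a gene of endoplasmic reticulum associated degradation, had 10.38, 9.29, 8.19 and 9.93 in OECM1 and 7.09, 7.40, 7.57 and 6.85 in Fadu (2.22, adjusted p = 0.00362). The stress factor gene ATF3 was 5.28-fold higher and DDIT4, an inhibitor of mTORC1, 3.94-fold. ATF4 itself and the asparagine synthetase gene ASNS did not pass, at -0.05 and 0.94. The member called lower was CRELD2 (-1.46), chosen after its values were seen.

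Of 28 hypoxia and glycolysis genes 12 were higher (42.9%) and 0 lower, against 11.1% and 9.91% of all genes. The median was 0.58. BNIP3, a mitophagy receptor gene induced by HIF1, had 8.93, 8.73, 9.56 and 7.95 in OECM1 and 5.92, 6.31, 6.14 and 6.45 in Fadu (2.59, adjusted p = 0.000461). ADM, which encodes adrenomedullin, was 3.73-fold higher, MXI1, a MYC antagonist gene, 4.36-fold, P4HA1, a collagen prolyl hydroxylase subunit, 3.12-fold and PFKFB3, a regulator of glycolysis, 3.01-fold. The glycolytic enzyme genes ENO1, LDHA and GAPDH did not pass, at 0.40, 0.35 and -0.13. Of 21 genes of glutamate and amino acid transport 8 were higher (38.1%) and 0 lower, against 11.1% and 9.91% of all genes. The cystine transporter gene SLC7A11 had 9.66, 8.91, 9.23 and 9.13 in OECM1 and 5.59, 6.47, 6.96 and 7.55 in Fadu (2.59, adjusted p = 0.000604), and SLC6A8, SLC1A3 and SLC1A5 were 5.47-fold, 4.11-fold and 2.17-fold higher.

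SLC7A11 is also listed as an NRF2 target, and that list went the other way in more members. Of 29 NRF2 and xenobiotic metabolism genes 2 were higher (6.90%) and 6 lower (20.7%), against 11.1% and 9.91% of all genes. NQO1, a quinone reductase gene, had 8.80, 8.74, 8.59 and 8.14 in OECM1 and 9.87, 9.59, 10.30 and 10.52 in Fadu (-1.50, adjusted p = 0.00232). GCLM, a subunit of the enzyme that starts glutathione synthesis, was 3.41-fold lower, and ALDH3A1, an aldehyde dehydrogenase gene, 4.11-fold lower with -1.07 in sublines and -3.01 in parents. TXNRD1 and TALDO1 did not pass, at 0.03 and -0.38.

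Of 41 actin cytoskeleton and motility genes 8 were higher (19.5%) and 1 lower (2.44%), against 11.1% and 9.91% of all genes. The count of 8 was 5 without Fadu subline replicate 1, and the count of 1 was 0 without either subline array of either line or Fadu parent replicate 1, 2 without OECM1 parent replicate 1 and 3 without OECM1 parent replicate 2. The small GTPase genes RHOB and RND3 were 6.13-fold and 5.58-fold higher, RHOB with 8.17, 8.51, 7.31 and 7.29 in OECM1 and 5.28, 5.13, 4.87 and 5.53 in Fadu, and CDC42EP3, an effector of CDC42, 4.28-fold higher. ACTN1 and VCL lay at -0.25 and -0.34. In the IGF list 4 of 13 genes were higher (30.8%) and 2 lower (15.4%), against 11.1% and 9.91% of all genes. The count of 4 was 2 without OECM1 subline replicate 1, either Fadu subline array or Fadu parent replicate 2, and the count of 2 was 1 without either Fadu parent array. IGFBP7 stood at 11.15, 10.70, 10.76 and 9.59 in OECM1 and 7.96, 8.13, 8.70 and 7.59 in Fadu (2.46, adjusted p = 0.000717), and IGF2BP2, an RNA-binding protein gene, was higher by 2.39. IGFBP4 was 4.11-fold lower, with OECM1 parent replicate 1 at 6.28 and the other OECM1 arrays at 4.25 to 4.43, against 6.34 to 7.36 in Fadu.

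G2 and mitosis genes were called about as often as genes in general. S phase genes were called higher less often and lower somewhat more often, with counts that depended on single arrays. Of 33 S phase genes 5 were lower and 1 higher (0 without any subline array or Fadu parent replicate 1), which is 15.2% and 3.03% against 9.91% and 11.1% of all genes. The median was -0.53, with -0.22 in the parents and -0.30 without OECM1 subline replicate 1. In 21 of the 33 the difference was negative in both states and in 2 positive in both, against 3368 and 3148 of all 8748 genes. The helicase subunit gene MCM4 had 7.50, 8.15, 8.30 and 7.65 in OECM1 and 9.16, 9.49, 9.03 and 9.39 in Fadu (-1.37, adjusted p = 0.00304). The other 4 genes called lower, FEN1, GINS2, MCM3 and TK1, all lost their calls without either Fadu subline array (adjusted p up to 0.0908, 0.0950, 0.110 and 0.115). The count of 5 was 1 without either Fadu subline array, 2 without OECM1 subline replicate 1 or Fadu parent replicate 2, 9 without OECM1 parent replicate 1 and 16 with the ACTB control difference as a covariate. PCNA, TYMS and RRM2 did not pass, at -0.63, -0.12 and -0.10. Of 32 G2 and mitosis genes 3 were higher (9.38%) and 4 lower (12.5%), and the count of 4 was 2 and 1 without OECM1 subline replicate 1 and 2, 7 and 2 without OECM1 parent replicate 1 and 2, 0 without either Fadu subline array and 1 without Fadu parent replicate 2. The kinetochore and checkpoint genes CENPF, MAD2L1 and CENPE were higher by 1.70, 1.46 and 1.40, whereas AURKA and CDC20 lay at 0.02 and 0.15.

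Positional genes were called no more often than genes in general. Of 39 positional and homeobox genes, which mark the place of a cell along the body axes, 2 were higher and 4 lower, a share of 5.13% and 10.3% against 11.1% and 9.91% among all genes, with a median of -0.02. PAX6 differed by -1.31 (5.50 to 6.03 in OECM1 and 6.51 to 7.48 in Fadu), HOXB7 by -1.05, PAX9, a factor of the pharyngeal pouches, by -0.95 and HOXB2 by -0.62. FOXF2 was higher by 1.22 and SIX2 by 0.83. HOXB7 lost its call without OECM1 subline replicate 1 or Fadu subline replicate 2, PAX9 without Fadu subline replicate 2 or either Fadu parent array and HOXB2 without OECM1 subline replicate 2 or Fadu parent replicate 1, with adjusted p up to 0.0541, 0.0638 and 0.0533. The count of 2 was 4 without OECM1 parent replicate 2 and 5 without Fadu parent replicate 2, and the count of 4 was 2 without Fadu subline replicate 2 or Fadu parent replicate 1. PITX1, a factor of the oral region, did not pass (0.54, adjusted p = 0.179).

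Of 11 genes of the 11q13 amplicon, a region often gained in these carcinomas, 2 were higher (18.2%) and 3 lower (27.3%), against 11.1% and 9.91% of all genes. The count of 2 was 1 without either OECM1 subline array, OECM1 parent replicate 2 or Fadu subline replicate 1 and 0 without Fadu subline replicate 2 or Fadu parent replicate 1, and the count of 3 was 1 without any array other than OECM1 parent replicate 2 and Fadu parent replicate 1. SHANK2, a scaffold protein gene, had 3.81, 3.49, 3.38 and 3.32 in OECM1 and 5.61, 6.55, 5.98 and 6.72 in Fadu (-2.72, adjusted p = 9.67e-05). CCND1, which encodes cyclin D1, had 9.53, 9.20, 9.24 and 10.59 in OECM1 and 8.36, 8.04, 8.62 and 9.34 in Fadu, with overlapping arrays. Its difference of 1.05 lost the call without the same 6 arrays that lowered the count of 2, with adjusted p up to 0.0937. FADD did not pass, at -0.12. Of 22 cell cycle inhibitor and p53 pathway genes 3 were higher (13.6%) and 1 lower (4.55%), against 11.1% and 9.91% of all genes. GADD45A was higher by 1.96. The number lower was 0 without either OECM1 subline array or Fadu subline replicate 1. It was 2 without OECM1 parent replicate 1 or Fadu parent replicate 2. Of 15 imprinted genes PEG10 was higher by 1.49 and MEST lower by 1.55 (6.67% each way, against 11.1% and 9.91% of all genes). Of 26 genes of cholesterol and fatty acid synthesis SREBF1 was higher by 1.56 and EBP lower by 1.81 (3.85% each way). Another EBP probe set gave 0.11. Without OECM1 parent replicate 2 the calls higher in these lists were 2 and 5, without Fadu parent replicate 1 the cholesterol and fatty acid list had 2, and the calls lower were 2 in the imprinted list without Fadu subline replicate 1 and 2 in the cholesterol and fatty acid list without OECM1 parent replicate 1.

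Genes that differed the same way also lay side by side in the genome. The 8736 tested genes with a place in the RefSeq gene table for GRCh38.p14 were put in chromosome order, and unbroken runs of at least 5 genes called in 1 direction were listed. There were 11 such runs, 7 higher and 4 lower, with 65 genes. No test was made of the runs, and the genes named here were chosen after their values were seen. The longest held 12 neighbours on the X chromosome, from PHKA2 to APOO, higher in OECM1 with a median difference of 1.79. A call in the same direction is what defines a run. The lines did not overlap in any of the 12, as was so for 1622 of all 1837 called genes. PHKA2, a subunit of phosphorylase kinase, had 9.49, 8.26, 8.71 and 8.80 in OECM1 and 5.50, 5.43, 5.56 and 5.57 in Fadu. RPS6KA3, a ribosomal S6 kinase gene, differed by 2.86, SAT1, the spermidine acetyltransferase of polyamine breakdown, by 2.66, PDHA1, a pyruvate dehydrogenase subunit, by 1.84 and SMS, the spermine synthase, by 1.47. The lowest member of the run was PHEX at 0.70, which lost its call without either OECM1 subline array, OECM1 parent replicate 2, either Fadu subline array or Fadu parent replicate 1 (adjusted p up to 0.102) and so would split the run.

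**Figure D5:**
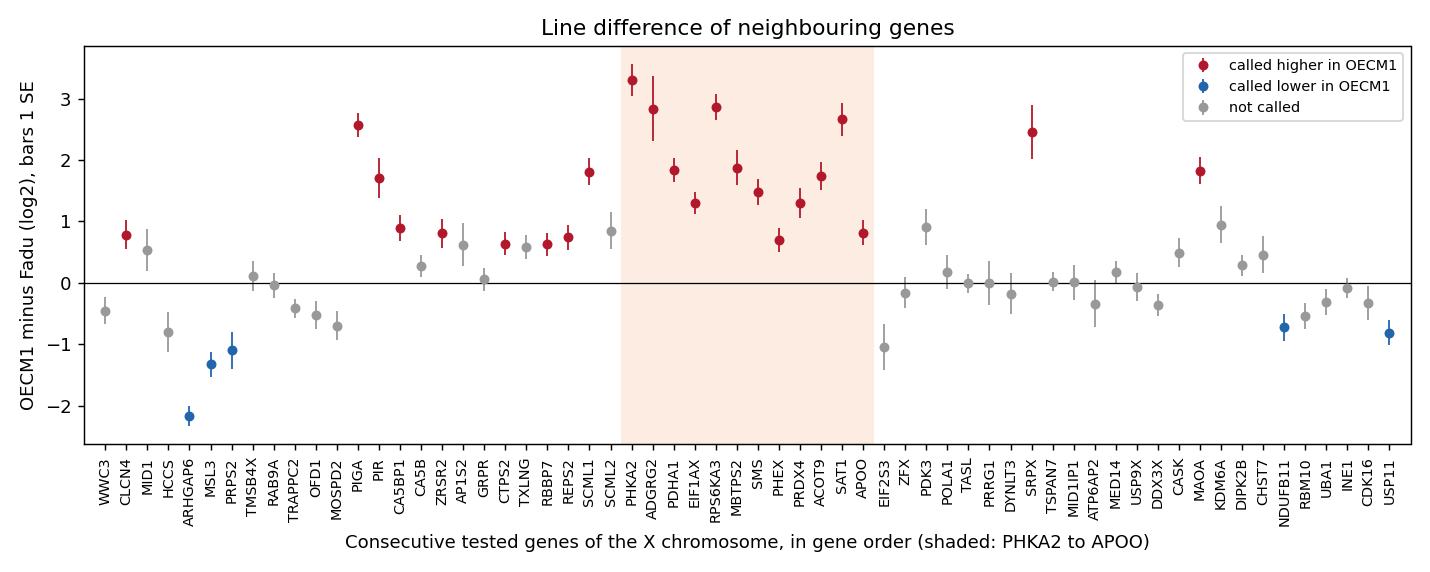
Log2 difference OECM1 minus Fadu for 62 consecutive tested genes of the X chromosome in gene order around the run from PHKA2 to APOO, with bars of 1 SE, coloured where called. The 12 genes of the run lie between 0.70 and 3.30, and genes further along on either side lie on both sides of 0.

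Among the other runs, 6 neighbours on chromosome 11 from CAPRIN1 to APIP were higher with a median of 1.24, and they include EHF and the catalase gene CAT. On chromosome 17, 6 neighbours from ULK2 to WSB1 were higher with a median of 1.75, and on chromosome 4, 6 from SCARB2 to BMP2K with a median of 1.35. On chromosome 15 a pair of runs of 5 genes were lower, MRPL46 to ISG20 with a median of -2.12 and CIB1 to BLM with a median of -1.71. On chromosome 7 a run of 5 from MRPS17 to CHCHD2 was lower with a median of -1.35, and it holds PSPH. EHF, PSPH and the interferon stimulated ISG20 thus lay next to genes that differed in the same direction.

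Whether the line difference depended on the state was tested by the interaction of line and state. It was called for 1 of the 8748 genes (0.0114%), with 316 genes at an unadjusted p under 0.05. The gene was AKR1C1, an aldo-keto reductase that acts on steroids and aldehydes. It had 7.64, 7.88, 6.36 and 6.24 in OECM1 and 5.43, 5.49, 7.45 and 7.39 in Fadu. The subline was above the parent in OECM1 and below it in Fadu, and duplicates lay close together. The line difference was 2.30 in the sublines and -1.12 in the parents, and their difference was 3.42 (SE 0.375, adjusted p = 0.0497). The call was lost in each of the 8 fits that left out 1 array, with differences of 3.30 to 3.54 and adjusted p from 0.0544 to 0.433. A second probe set of AKR1C1 gave a line difference of 0.17 over both states, and probe sets of the AKR1C family can share signal.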

How the data were processed

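Gene expression was measured on Affymetrix arrays in 12 samples, of which the 8 arrays of OECM1 and Fadu were compared. The deposited log2 values were made by the authors with RMA in Partek version 7, per the submitters' processing notes, and were used as deposited. Other steps before deposit are not given in the sources used here.

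Of 22283 probe sets, 19065 carried 1 gene symbol in GEO's platform annotation, 1043 carried several, and 2107 not listed there were unnamed here. Each of 11963 genes was read from 1 probe set, that of the greatest average across the 12 arrays. Genes above the 40th percentile of all values (4.52) in at least 2 of the 8 arrays were tested (8748). The line difference was fitted with limma version 3.58.1 in R version 4.3.3 (lmFit, and eBayes with an intensity trend) with state as a covariate, and the contrasts by state and the interaction came from a fit of 4 group means. P-values were adjusted by Benjamini-Hochberg over all genes tested, with a threshold of 0.05. Single values per array were compared by exact permutation in SciPy version 1.17.1. The number of arrays limits the precision, the median SE of a difference being 0.220. In 10 simulated data sets with 200 changed genes among 8748, the line test recovered 49.2% of 2-fold and 89.5% of 4-fold changes, and 5.45% of its calls were false. The simulated arrays had independent noise and no state effect. They held fewer changed genes than the 1837 called in the data, so these rates may not carry over.

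The members and gene lists were chosen with earlier results of these data known. Named genes were taken from the 15 largest called differences in each direction among genes whose lines did not overlap, VIM and KRT14, and, per list, up to 5 called members by size and up to 3 bright members that did not pass. Every called positional gene and every gene called for the interaction was also named, and other genes are stated as chosen after their values were seen. Promoters come from RefSeq on GRCh38.p14. Alternatives varied the model, the arrays, the variance moderation, array weights, the filter, probe sets, centring, a minimum fold, RNA quality, a replicate block and single arrays.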

Additional observations from a re-analysis of the deposited data

Results flagged for a closer look

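In 25 of 478 groups of 4 arrays (the named genes, list means and quality measures in each line), 1 array lay far from the other 3 by Dixon's ratio (its gap to the nearest array over the whole range), past its critical value. Chance alone gives about 1 in 20.

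Within OECM1, parent replicate 2 was the highest array for KRT14 (4.94 against 3.90 to 4.01 in the other OECM1 arrays, ratio 0.893), EGR1 (5.39 against 3.55 to 3.80, ratio 0.861), IL1A (11.36 against 9.77 to 9.93, ratio 0.901), LY6D (ratio 0.948) and HOXB2 (ratio 0.865), and the lowest for PLAUR (5.99 against 8.09 to 8.42, ratio 0.867). OECM1 parent replicate 1 was the lowest for ATF3 (5.05 against 7.18 to 7.58, ratio 0.841) and the highest for IGFBP4 (ratio 0.911). OECM1 subline replicate 1 was the highest for EREG (ratio 0.964), where all OECM1 arrays were dim, and the lowest for TK1 (7.0 against 8.25 to 8.35, ratio 0.921), and OECM1 subline replicate 2 was the highest for IFIT1 (5.97 against 4.45 to 4.57, ratio 0.918).

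Within Fadu, parent replicate 2 was the highest array for LOXL2 (ratio 0.959), TK1 (0.836), GAPDH (0.902), COL1A2 (0.849), FOXF2 (0.869) and MAGEA6 (0.849). It was the lowest for GBP1 (6.13 against 7.35 to 7.55, ratio 0.858), COL4A6 (ratio 0.873) and the mean of the IGF list (-0.36 against 0.12 to 0.13, ratio 0.977). Fadu parent replicate 1 was the lowest for CDH2 (ratio 0.848) and the highest for HLA-F (0.854) and EBP (0.833), Fadu subline replicate 1 the highest for RRM2 (0.878), and Fadu subline replicate 2 the lowest for the mean of the squamous and basal lineage factors (0.924).

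AKR1C1 was the gene whose line difference depended on state by the interaction test, at 3.42 log2 units (sublines minus parents, adjusted p = 0.0497 in limma).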

How the results depend on the processing

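Of the 143 called genes named in the text, 0 changed sign under any alternative and 130 stayed called in all 8 fits that left out 1 array. Changes of variance moderation, filter or minimum fold leave the difference as it is, so they could not change a sign. The alternative with every probe set read these genes from the same probe set as before. Another probe set of ITGB4 and of EBP had the opposite sign, as given above. The number called over all genes, 1837, was 426 in parent arrays only, 999 in subline arrays only and 154 with a minimum fold of 2. It was 1203 to 2067 in the fits that left out 1 array, lowest without Fadu subline replicate 2 and 1. The other alternatives gave 1330 (all 12 arrays) to 2457 (ACTB covariate) genes. The fit of every probe set called 2590 of 12866 probe sets, which is not a count of genes. Of the 143 genes, 82 were not called with a minimum fold of 2, 47 in the parent contrast and 29 in the subline contrast. With all 12 arrays 18 were not called, without both OECM1 parent arrays 17 and with the mean of probe sets 3. With array weights 2450 genes were called, with the ACTB covariate 2457, of which 47.8% were higher against 52.8% of 1837. The interaction count of 1 was 0 with all 12 arrays, with no filter on dim genes, with the replicate block and in each fit that left out 1 array (0 to 0); the cause was not tested. There a group had 1 array, whose spread was taken from the other groups.

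Same-numbered arrays did not deviate together between parent and subline of a line (r = -0.40 in OECM1 and -0.38 in Fadu) but did between the lines within a state (0.25 in sublines and 0.28 in parents), and the replicate block called 1618 genes, 1 of the 143 losing its call. Crossed numbers, a pairing chosen after seeing the data, called 2330. The filter on the mean of 8 arrays (1750 genes) and the fit without both OECM1 parent arrays (1572) were also added after seeing the data. Of the list medians, that of the 11q13 amplicon (-0.34) was -0.54 without OECM1 subline replicate 1. It changed sign, to 0.031, in the subline contrast and without both OECM1 parent arrays, which is the same contrast for these values. The junction median (-0.17) became 0.045 in the same fits, and that of squamous differentiation (-0.16) became 0.86 with a strict filter, which leaves fewer genes. RMA values give no detection calls, so a value below 4.52 is only a bound on the level.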
